A study of Sus scrofa with 42 samples.

Results

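This report covers the pig genes named for the centrosome, the kinetochore and the kinesin motors, chosen by symbol alone. The rule took every gene whose symbol opens with CEP and a digit, CENP and a letter, KIF and a digit, or TUBG, and it found 85 of the 15351 genes in the table. They comprised 29 CEP, 18 CENP, 31 KIF and 7 TUBG genes. Expression was measured by RNA-seq of single cells from Sus scrofa embryos. One set was fertilized in vitro (IVF), and the other was started by parthenogenetic activation (PA), in which a mature oocyte is made to divide without sperm. Each method gave 21 cells at the 1-, 2-, 4- and 8-cell stages. All embryos came from oocytes matured in vitro, so these groups are a culture model and not embryos grown in the sow. The labels placed the cells in 20 embryos. Each method had 3 embryos at the 1-, 2- and 4-cell stages, with 1 cell, 2 blastomeres, and 2 to 4 blastomeres per embryo, respectively, and 1 embryo at the 8-cell stage with 3 blastomeres. The blastomeres of an embryo were averaged, and the embryo was the replicate. No label named the sow or boar behind an embryo, so the p-values measure the spread between these embryos.

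Centrosomes organise the microtubules of the spindle. Each is built around a pair of centrioles, and the CEP proteins build, pair and anchor those centrioles. In most mammals, pigs included, the oocyte loses its centrioles and the sperm brings them back, so a parthenogenetic embryo begins without a sperm centriole. Apart from CENPJ, which was listed here under centriole duplication, the CENP proteins form the kinetochore, the plate on each centromere that holds the spindle fibres. The kinesins are motors that walk along microtubules, some in the spindle and others in transport or in cilia, and the gamma-tubulin ring complex starts new microtubules. Early cleavage runs on RNA that the oocyte stored, until that RNA is degraded and the embryo's own genome takes over.

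The unit was FPKM, fragments per kilobase of gene scaled to each cell's mapped reads, so that levels can be compared between genes. The cells held 4378976 to 15306127 reads on genes, with a median of 10345438. A member was tested where at least 3 cells reached an FPKM of 1, which left 68 of the 85. A change was called where limma's Benjamini-Hochberg adjusted p over the 8116 genes tested was under 0.05 and the log2 fold change of FPKM + 1 was at least 1 in size. Among 861 pairs of cells, 2 pairs were nearly identical. The PA 2-cell blastomere 2-1 (embryo 2, blastomere 1) and the PA 4-cell blastomere 2-1 correlated at r = 0.999 over all genes, as did PA 2-cell 1-2 and PA 4-cell 1-4, where the next pair reached 0.931. The copies labelled PA 4-cell held 13419993 and 10404568 reads, where the other 7 PA 4-cell blastomeres held 5279227 to 8344762 and the 4 unrepeated PA 2-cell blastomeres 11356921 to 12815819. Median-ratio size factors put the typical gene of 1064 nuclear genes on a common level in each cell. The factors of these copies were 2.35 and 1.92, against 0.0341 to 0.623 and 1.66 to 1.96, respectively. On the size factor both copies thus lay with or above the PA 2-cell blastomeres and outside the other PA 4-cell ones. The IVF 4-cell blastomeres had 0.294 to 2.39, a range that holds both copies. Which stage the copies belong to was not tested. Calls that end without these cells are given with that value. Oocyte markers (7 of 10 in the table, led by BTG4) summed to 861 to 1067 FPKM in the 1-cell embryos, and to 76.2 in the IVF and 56.1 in the PA embryo of the 8-cell stage. Of the cumulus cell markers, 5 of 12 were in the table, none was at 0 in every cell, and they summed to 0.0116 to 12.2 over the embryos. STAR reached an FPKM of 1 in 20 cells. AKAP4, the 1 sperm marker of 8 in the table, reached an FPKM of 1 in 2 cells, and the 3 of 4 blood markers in the table summed to at most 1.76. Their part in the results was not tested.

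Most of the module was detected in the 1-cell embryo, and by the 4- and 8-cell stages fewer members were detected. In the IVF 1-cell embryos, 55, 61 and 61 members stood at an FPKM of 1 or more, and in the PA 1-cell embryos 57, 51 and 50. The count was 50 to 62 in IVF and 46 to 47 in PA at the 2-cell stage, and 33 to 49 in IVF and 27 to 43 in PA at the 4-cell stage. Both 8-cell embryos had 25. All genes in the table declined too. The share at FPKM 1 or more was 30.9% to 37.7% in the 1-cell embryos, 21.6% in the IVF 8-cell embryo and 20.3% in the PA 8-cell embryo. The members' share went from 58.8% to 71.8% down to 29.4% in each 8-cell embryo. PA 2-cell embryos 1 and 2, which each hold a repeated blastomere, had 47 and 46, and PA 2-cell embryo 3, which holds none, had 47. PA 4-cell embryos 1 and 2, which also each hold a repeated blastomere, had 43 and 39, and PA 4-cell embryo 3, which holds none, had 27.

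**Figure D1:**
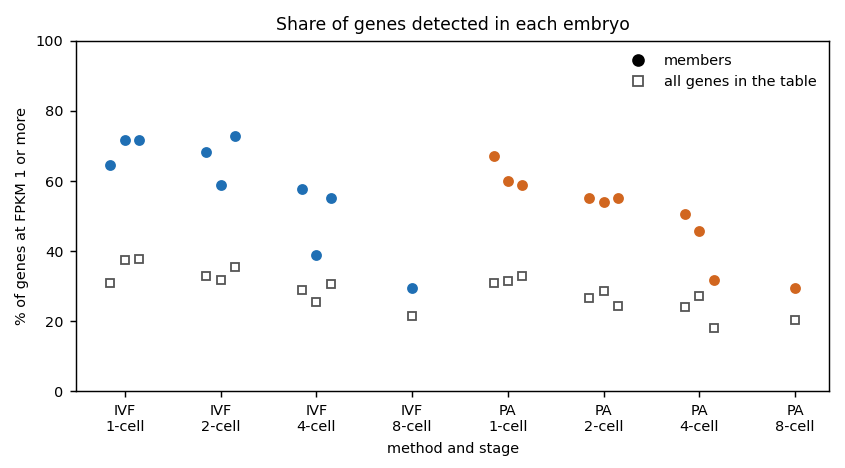
Percent of genes at an FPKM of 1 or more (y axis) in each of the 20 embryos, by method and stage (x axis). Filled circles are the 85 members, blue for IVF and orange for PA, and open squares are all 15351 genes. Members start at 58.8% to 71.8% in the 1-cell embryos and end at 29.4% in both 8-cell embryos.

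CEP95 and KIF20B stood far above the rest. CEP95, a centrosomal protein, averaged 131 FPKM over the 8 groups, and KIF20B, a kinesin of late cell division, averaged 109. Together they held 12.5% to 44.8% of the summed FPKM of all members in an embryo. CEP95 was at 179, 174 and 199 in the IVF 1-cell embryos and at 163, 161 and 154 in the PA ones, a narrow range in which the methods did not overlap. No member, CEP95 included, was called between the methods at the 1-cell stage, where the smallest limma adjusted p was 0.914. KIF20B was at 228, 133 and 145 in IVF and at 110, 136 and 129 in PA at that stage, so the methods overlapped.

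Next by level came CENPE at 45.0 FPKM, a kinetochore motor that carries chromosomes to the spindle equator, and KIF18A at 41.8, a motor that trims spindle fibres. CENPO, of the inner kinetochore, followed at 33.8. CEP290, a gatekeeper of the cilium base, averaged 30.9, and CEP170, of the mother centriole, averaged 25.7. Among the 5 highest of each family were also CENPH at 25.3 and CENPC at 20.2, both of the inner kinetochore, KIF2A at 16.0, a microtubule depolymerase, CEP85L at 14.4, CENPU at 14.1, KIF5B at 13.6, a cargo motor, KIF13B at 11.95 and CEP78 at 10.3. Members of the mitotic kinesin list had a median level of 7.05 FPKM over 13 genes, against 1.20 over the 17 kinesins of transport and cilia. The 13 include the row named KIF23, which lies on a RefSeq pseudogene. The centriole duplication list had a median of 6.47 over 11 genes, and the centromere-bound CENP list 8.14 over 15.

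The gamma-tubulin ring complex was the low end of the module. The row named TUBG1 was highest in the 8-cell embryos, at 1.02 in IVF and 0.436 in PA, and lay at or below 0.279 in every earlier embryo. TUBG2 stayed under 1 in every cell. These 2 rows overlap each other on the same strand, so their reads are hard to divide, and RefSeq has no gene of either symbol there. TUBGCP2 and TUBGCP6, subunits of the ring, were above 0 in 1 cell each. TUBGCP3 reached 1 in 2 cells. TUBG1, TUBGCP4 and TUBGCP5 passed the filter, and the latter 2 are described with the comparison of methods.

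Of the 17 members that were not tested, CEP131 was at 0 in every cell and 9 others never reached 1. CENPB, which binds the centromere's repeated DNA, was above 0 in 2 cells, and CEP250, which links the centrioles, in 1. Those with a cell at 1 or more included CEP41, KIF2B, KIF12, KIF17, KIF18B and TUBGCP3. The row named KIF23 needs care. It lies at chr7:80511103-80516640 (Sscrofa11.1), on a RefSeq pseudogene, whereas RefSeq places KIF23 at chr1:167239973-167281250, so its values are those of the row and not of that gene. KIF1BP, now also called KIFBP, binds kinesins and is not a motor.

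**Figure D2:**
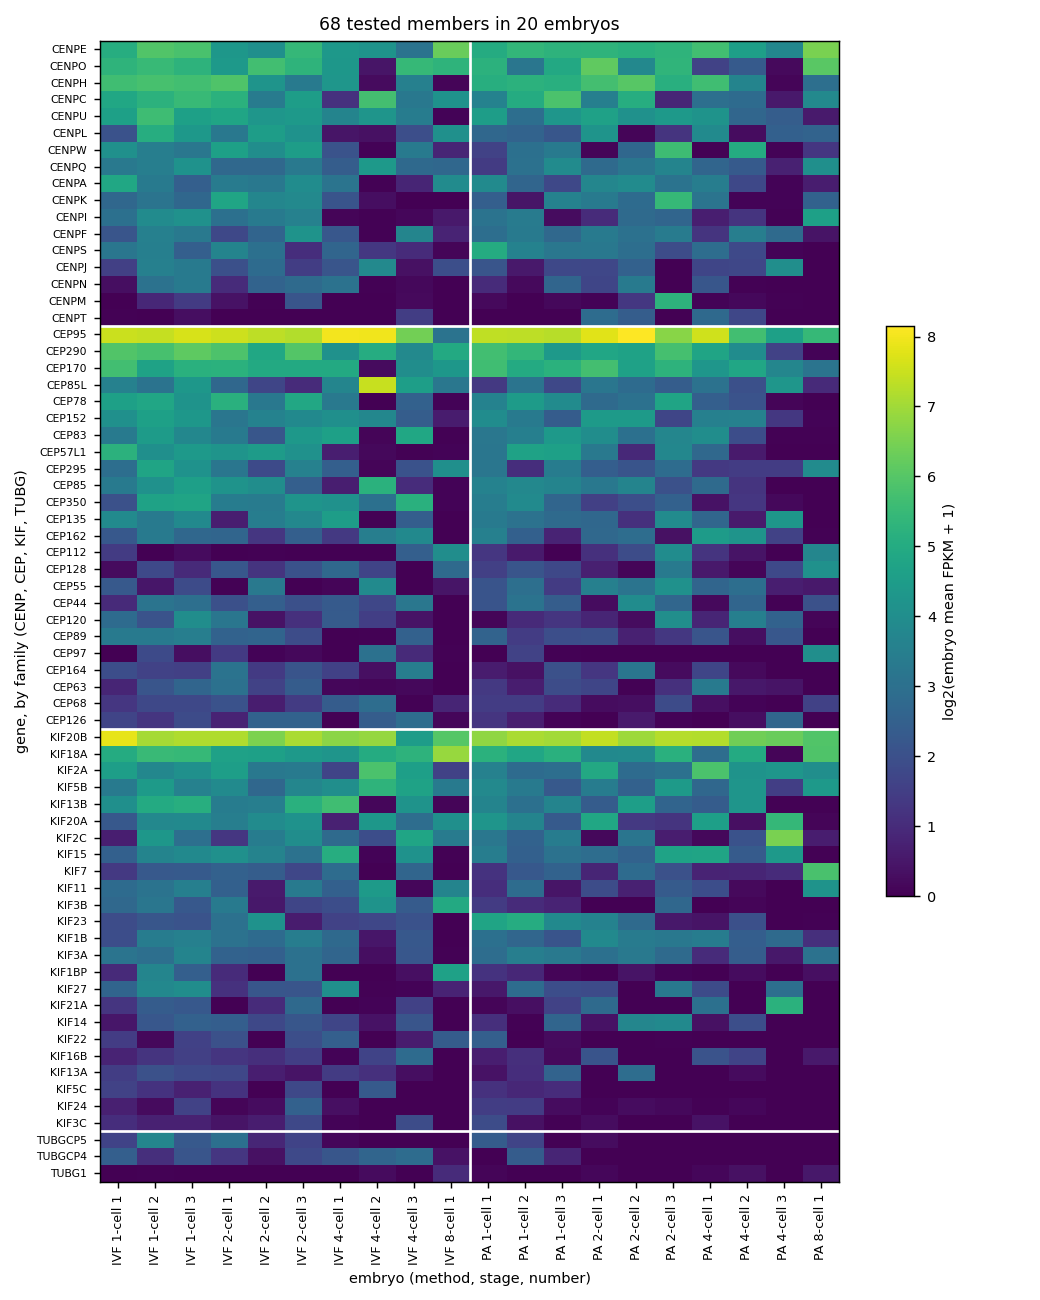
The 68 tested members (rows, by family and then by mean level) in the 20 embryos (columns), coloured by log2(embryo mean FPKM + 1). White lines part the families and the methods. CEP95 and KIF20B are bright in nearly all embryos, and the columns of the 2 8-cell embryos hold the most dark cells, with isolated bright ones such as KIF18A and CENPE.

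Sequence upstream of CEP57L1, CEP112 and CENPU is shown because transcription factors commonly bind there and because of their calls averaged over both methods, given below. Those calls stood without any embryo that could be left out. For CEP112 and CENPU the lone embryos of the last stage, on which the calls rest, could not be left out. Each of the 3 members lost its call when the fit held only the compared groups, and CENPU also with the blastomeres' log values averaged. The 200 bases before the start of CEP57L1 (chr1:75170789-75170988, plus strand), of CEP112 (chr12:12815922-12816121, minus strand) and of CENPU (chr15:45851491-45851690, minus strand) were read from RefSeq's Sscrofa11.1, counted back from the more upstream of the RefSeq and the deposited gene start. These windows overlap no annotated gene or exon, whereas those of CENPE and CEP95, whose calls also stood, do. Capitals mark the CCAAT box, and none of the 3 holds TTTGAA, the cell cycle homology region, or TTCCCGC, an E2F-like motif, on either strand.
CEP57L1: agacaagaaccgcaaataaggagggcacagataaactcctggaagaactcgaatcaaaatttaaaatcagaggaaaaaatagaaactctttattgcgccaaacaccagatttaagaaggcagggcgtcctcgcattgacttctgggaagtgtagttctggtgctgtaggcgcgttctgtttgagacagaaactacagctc
CEP112: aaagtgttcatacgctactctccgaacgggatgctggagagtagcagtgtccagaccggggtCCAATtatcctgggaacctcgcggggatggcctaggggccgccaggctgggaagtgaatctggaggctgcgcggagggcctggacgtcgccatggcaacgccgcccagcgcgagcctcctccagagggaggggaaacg
CENPU: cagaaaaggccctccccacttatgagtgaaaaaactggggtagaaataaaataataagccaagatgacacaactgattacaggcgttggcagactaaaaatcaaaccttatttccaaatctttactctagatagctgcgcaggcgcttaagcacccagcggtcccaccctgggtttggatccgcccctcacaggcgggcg

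In the 250 bases before the RefSeq start, 37 of 81 member promoters (45.7%) held CCAAT on either strand, against 31.9% of 19531 protein-coding promoters. TTTGAA was in 8 of 81 (9.88%), against 12.5% of all, and TTCCCGC in 8 of 81 (9.88%), against 5.83%. The motifs do not overlap one another in letters, and these shares are descriptions.

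From the 1- to the 2-cell stage no member was called, although 47 of 68 lay below 0, with a median log2 difference of -0.25, where all genes had -0.11. In the step averaged over both methods, limma called 0 of 68 members, and 1 had an unadjusted p under 0.05, CENPK, at a log2 difference of 1.48. The background was 0% of the 8116 genes. In IVF alone 0 members were called and 0 had an unadjusted p under 0.05, against a background of 0%. In PA alone 0 were called and 3 had an unadjusted p under 0.05, against a background of 0.0986%.

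Between the 2- and the 4-cell stage 5 members fell and none rose. Of these, 3 belong to the inner kinetochore (CENPK, CENPO and CENPI), and 2 to the centriole (CEP57L1 and CEP78). In this step averaged over both methods, limma called 5 of 68 members lower, 7.35%, against 2.35% of all genes, and 0 higher, against 1.79% of all genes. Members had a median log2 difference of -0.65, where all genes had -0.24. Median-ratio scaling sets the typical gene of 1064 nuclear genes equal between cells, and not that of all genes tested. Its size factors ran from 0.0341 to 3.66 over the cells. Under this scaling the median of members was 0.33 and that of all genes 0.39, so the sign turned for both. There 2 of 66 members were called higher (CENPE and KIF2A), against 7.71% of all genes, and 2 lower (CENPK and CEP57L1), against 0.759%.

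CEP57L1, a centriole protein (chr1:75171048-75227032, plus strand), gave the lowest adjusted p. The IVF 2-cell embryos had 17.7, 21.3 and 16.6 FPKM and the IVF 4-cell embryos 0.616, 0.134 and 0.0333. The PA 2-cell embryos had 8.82, 0.935 and 12.7 and the PA 4-cell embryos 5.73, 0.492 and 0.00935. The stages did not overlap in IVF and overlapped in PA. The values of PA 4-cell embryos 1 and 2 came almost wholly from the repeated blastomeres 1-4 and 2-1, at 11.4 and 1.83. Their 2-cell copies had 9.87 and 1.83. CEP57L1 fell by 2.77 ± 0.59 (SE) on the log2 scale over both methods, with a limma adjusted p of 0.0133, and the call stood whichever embryo was left out. In IVF alone it fell by 3.97 ± 0.84, with a limma adjusted p of 0.0273, and there it was the 1 member called lower, against 0.493% of all genes lower and 0.616% higher. No member was called higher there, and 11 of 68 had an unadjusted p under 0.05. The IVF call was lost without any of the 3 IVF 2-cell embryos or without IVF 4-cell embryo 2 or 3, at limma adjusted p of 0.0544 to 0.0993. Both 8-cell embryos were low too, at 0.0521 in IVF and 0.0186 in PA.

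CENPK, which helps bridge the centromere to the spindle-binding plate (chr16:44042219-44080472, minus strand), had 26.6, 12.3 and 13.4 in the IVF 2-cell embryos and 3.32, 0.238 and 0 in the IVF 4-cell embryos. In PA it had 9.14, 6.21 and 42.6 and then 7.83, 0.0649 and 0.0586. The 7.83 of PA 4-cell embryo 1 came from blastomere 1-4, at 15.6, which is a repeated cell (14.8 in its 2-cell copy). CENPK fell by 3.05 ± 0.70 with a limma adjusted p of 0.0183. Without the 2 repeated PA 4-cell blastomeres it fell by 3.55 ± 0.62 with a limma adjusted p of 0.00118. The call was lost without IVF 2-cell embryo 1 (0.0589) or PA 2-cell embryo 3 (0.0566).

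CENPI, of the same inner plate (chrX:82776375-82827567, plus strand), had 7.13, 8.96 and 10.98 in the IVF 2-cell embryos and 0.0816, 0.0393 and 0.0936 in the IVF 4-cell embryos. In PA it had 1.01, 6.12 and 5.36 and then 0.625, 1.36 and 0.0437. The stages lay far apart in IVF and overlapped in PA. The values of PA 4-cell embryos 1 and 2 came almost wholly from the repeated blastomeres 1-4 and 2-1, at 1.22 and 5.39. Their 2-cell copies had 1.23 and 5.56. CENPI fell by 2.35 ± 0.58 with a limma adjusted p of 0.0276. The call was lost when any of 6 embryos was left out (each IVF 2-cell embryo, PA 2-cell embryo 2 or 3, or PA 4-cell embryo 3), at 0.0565 to 0.0675.

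CENPO (chr3:113968915-113979148, minus strand) fell by 2.72 ± 0.71 with a limma adjusted p of 0.0349. It had 20.01, 50.8 and 38.2 in the IVF 2-cell embryos and 18.8, 0.377 and 43.3 in the IVF 4-cell embryos, which overlapped. In PA it had 71.2, 13.1 and 39.2 and then 2.07, 4.01 and 0.150, which did not. CEP78, of the distal centriole, fell by 2.23 ± 0.62 with a limma adjusted p of 0.0492, and its stages overlapped. CEP78 had 35.1, 8.52 and 28.3 in the IVF 2-cell embryos and 8.77, 0.0153 and 4.79 in the IVF 4-cell embryos. In PA it had 5.98, 7.21 and 26.0 and then 4.48, 3.24 and 0.0803. The 4.48 and 3.24 came almost wholly from the repeated PA 4-cell blastomeres 1-4 and 2-1, at 8.91 and 12.9. CENPO lost its call without any of 7 of the 20 embryos (each IVF 2-cell embryo, IVF 4-cell embryo 2, PA 2-cell embryo 1 or 3, or PA 4-cell embryo 3), at 0.0593 to 0.0848. CEP78 lost it without any of 14, at up to 0.124.

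In PA alone no member was called between the 2- and the 4-cell stage with all cells in the fit, against a background of 0.394%, and 9 of 68 had an unadjusted p under 0.05. Without the 2 repeated PA 4-cell blastomeres limma called 13, all lower, 19.1% of members against 6.31% of all genes lower in that fit. They were CENPA, CENPH, CENPK, CENPO, CENPQ, CENPS, CENPU, CEP57L1, CEP78, CEP83, CEP95, CEP290 and KIF3A. Without both copies it called 4, all lower (CENPA, CENPK, CENPO and CEP95), 5.97% against 4.21%. The number of members called in PA thus moved when these cells were removed, as did the share of all genes called, and the cause was not tested. Averaged over both methods, the same 5 genes were called without the 2 PA 4-cell copies, among 11, and without both copies, among 8, all of them lower. These were 16.2% of members against 9.19% of all genes, and 11.9% against 6.56%.

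The difference between the methods in this step was tested directly. limma called 0 of 68 members, and 4 had an unadjusted p under 0.05, against a background of 0%.

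**Figure D3:**
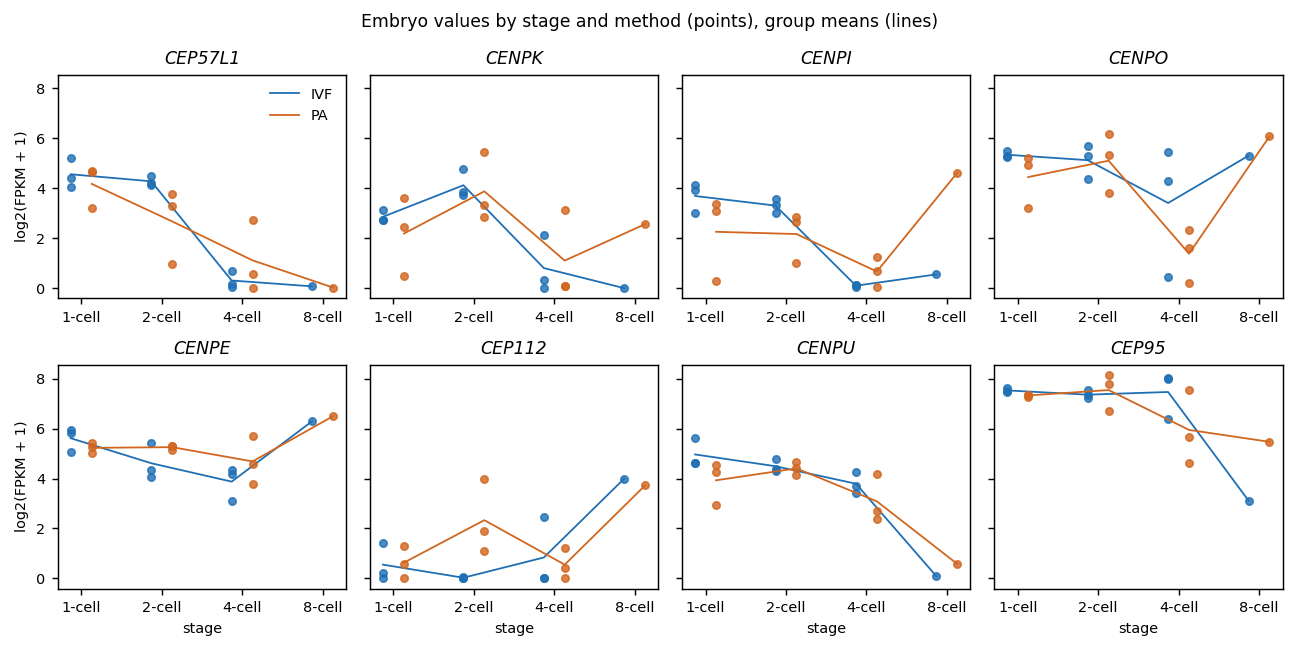
Embryo values of 8 members as log2(FPKM + 1) (y axis) by stage (x axis), with points for embryos and lines through the group means, blue for IVF and orange for PA. CEP57L1, CENPK and CENPI drop from the 2- to the 4-cell stage, CENPE and CEP112 stand higher in both 8-cell embryos than in the mean of the 4-cell embryos, and CENPU and CEP95 stand lower there.

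Between the 4- and the 8-cell stage members moved both ways. In the step averaged over both methods limma called 6 of 68 higher, 8.82%, against 7.27% of all genes, and 5 lower, 7.35%, against 5.34% of all genes. Both shares were near the background. The rises depended on the scaling. With nuclear genes rescaled to the same total, which takes out the mitochondrial share, 1 member rose (CEP112), against 5.75% of all genes, and 5 fell, against 5.9%. The same 5 fell as before, and CENPO, KIF1BP, CENPE, CEP295 and KIF18A lost their calls. Under median-ratio scaling 15 of 66 rose, against 19.7% of all genes, and 6 fell, against 5.33%. Each method had 1 embryo at the 8-cell stage, and the test assumed for it the spread seen in the replicated groups. Mitochondrial genes held 45.2% and 47.1% of the summed FPKM in the 8-cell embryos and 21.3% to 60.6% in the 4-cell embryos.

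The members that rose were CENPE and CENPO of the kinetochore, the spindle motor KIF18A, CEP112 and CEP295 of the centrosome, and KIF1BP. CEP112 (chr12:12397533-12815921, minus strand) had 14.95 in the 8-cell embryo of IVF and 12.2 in that of PA. The 4-cell embryos had 0.0150, 0.0167 and 4.51 in IVF and 1.32, 0.343 and 0.00582 in PA, all below both 8-cell values. PA 2-cell embryo 3, at 14.7, lay between the values of the 8-cell embryos. CEP112 rose by 3.17 ± 0.82 on the log2 scale with a limma adjusted p of 0.0133, and kept the call without any embryo that could be left out. CENPE (chr8:117888970-117965792, plus strand) had 77.4 in the 8-cell embryo of IVF and 89.3 in that of PA, above 19.2, 17.3 and 7.54 in the IVF 4-cell embryos and 50.8, 23.1 and 12.7 in the PA 4-cell embryos. It rose by 2.11 ± 0.59 with a limma adjusted p of 0.0217, and kept the call in the same way. With nuclear genes rescaled its limma adjusted p was 0.0561.

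KIF18A (chr2:32244098-32331349, plus strand) had 119 in the 8-cell embryo of IVF and 58.6 in that of PA, where the 4-cell embryos lay between 0.0920 and 37.3. It rose by 2.64 ± 0.83 with a limma adjusted p of 0.0427, which became 0.0654 without the 2 repeated PA 4-cell blastomeres. CEP295, which lets a new centriole mature, had 15.9 and 14.4 against at most 4.59 in any 4-cell embryo, and rose by 2.53 ± 0.82 with a limma adjusted p of 0.0478, which became 0.0508 without both copies of the repeated blastomeres. CENPO stood at 38.6 and 66.7 and rose by 3.30 ± 1.00 with a limma adjusted p of 0.0346, within the range of its 1- and 2-cell embryos, 8.24 to 71.2. KIF1BP rose by 2.38 ± 0.76 with a limma adjusted p of 0.0441. Leaving out an embryo ended the call of KIF18A in 12 of 18 cases, of CEP295 in 13, of KIF1BP in 12 and of CENPO in 1 (PA 4-cell embryo 3, 0.0502), at limma adjusted p of at most 0.0700.

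The members that fell were KIF15, a motor that holds spindle poles apart, CENPU of the inner kinetochore, CEP152, which recruits the centriole-building machinery, CEP162 and CEP95. CENPU (chr15:45815834-45851490, minus strand) had 0.0615 in the 8-cell embryo of IVF and 0.491 in that of PA, where the 4-cell embryos had 11.8, 18.1 and 9.79 in IVF and 17.1, 5.42 and 4.26 in PA. It fell by 3.11 ± 0.64 with a limma adjusted p of 0.00248, the lowest of the members, and the groups did not overlap. CENPU overlaps PRIMPOL on the opposite strand over 4110 bases, and the 2 rows correlated at r = 0.90 over the 42 cells. PRIMPOL had 0.153 and 0.0561 in the 8-cell embryos. Whether the libraries kept strand is not given in the sources used here, so reads of the pair in the shared bases cannot be told apart. The part of those bases in the 2 values was not tested.

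CEP95 (chr12:14507846-14572477, minus strand) had 7.66 in the 8-cell embryo of IVF and 43.3 in that of PA, where the 4-cell embryos had 256, 253 and 83.6 in IVF and 186, 49.96 and 23.6 in PA. The PA 8-cell value lay within the range of the PA 4-cell embryos, and the IVF one below its own. CEP95 fell by 2.41 ± 0.63 with a limma adjusted p of 0.0139, but by 1.61 ± 0.90 with 0.318 without the 2 repeated PA 4-cell blastomeres. KIF15 had 0.0348 and 0.0328 in the 8-cell embryos and up to 33.0 in the 4-cell embryos, with IVF 4-cell embryo 2 at 0.0459, and fell by 3.42 ± 1.04 with a limma adjusted p of 0.0339. CEP162 had 0.00799 and 0.0263 in the 8-cell embryos and 1.56 to 20.98 in the 4-cell embryos, and fell by 3.14 ± 0.98 with a limma adjusted p of 0.0406, which became 0.0542 without both copies. CEP152 fell by 2.76 ± 0.83 with a limma adjusted p of 0.0318, which became 0.147 without the 2 repeated PA 4-cell blastomeres. In the 6 blastomeres of the 8-cell stage KIF15 was at most 0.0590 and CEP162 at most 0.0435.

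KIF15 lost its call without IVF 4-cell embryo 1 (0.0600) or 3 (0.0610) or PA 4-cell embryo 1 (0.0592). CEP152 lost it without IVF 4-cell embryo 1 (0.0513) or PA 4-cell embryo 1 (0.0540) or 2 (0.0537), and CEP162 without any of 10 of 18 embryos, at up to 0.0704.

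In IVF alone 1 member rose in this step, KIF1BP, against 3.72% of all genes, and 3 fell, CEP95, CEP350 and CENPU, against 3.25%. CEP350 anchors microtubules at the centrosome. It had 16.5, 7.07 and 35.4 in the IVF 4-cell embryos and 0.0613 in the 8-cell embryo, and fell by 4.02 ± 1.13 with a limma adjusted p of 0.0347, or 0.0766 without IVF 4-cell embryo 3 and 0.0581 without both copies of the repeated blastomeres. CEP95 fell by 4.35 ± 0.89 with 0.00390, which became 0.0552 without both copies, and CENPU by 3.71 ± 0.91 with 0.0141 (limma adjusted p). KIF1BP rose by 4.53 ± 1.07 with a limma adjusted p of 0.0114.

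In PA alone 4 members rose, against 6.81% of all genes, and 1 fell, against 3.18%. CENPI had 23.7 in the PA 8-cell embryo and rose by 3.96 ± 1.16 with a limma adjusted p of 0.0344. CENPO rose by 4.70 ± 1.42 with a limma adjusted p of 0.0399. KIF7, a kinesin of the ciliary tip, rose by 4.94 ± 1.15 with 0.00870, and CEP97, which caps centrioles, by 4.03 ± 0.99 with 0.0120 (limma adjusted p). CEP290 had 0.0543 in the PA 8-cell embryo and 26.4, 14.6 and 2.03 in the PA 4-cell embryos, and fell by 3.37 ± 1.01 with a limma adjusted p of 0.0389. Without the 2 repeated PA 4-cell blastomeres the limma adjusted p of CEP290 was 0.0956. CENPI lost its call without PA 4-cell embryo 1 (0.0519) or 3 (0.0608), CENPO without any of 8 of 19 embryos, at up to 0.0806, and CEP290 without any of 7, at up to 0.0965.

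The 8-cell values rested on a few strong blastomeres. KIF1BP was 72.3 in IVF blastomere 1-1 and 0 and 0.0137 in its sisters. CENPO was 116, 0.0959 and 0.0537 in the 3 IVF blastomeres and 198, 0.0444 and 2.07 in the PA ones, so 1 cell of each embryo carried it. KIF18A was 0.109, 58.2 and 298 in IVF and 0.150, 113 and 62.6 in PA, high in 2 sisters of 3. CENPE was above 20 in 5 of the 6 blastomeres, at 22.8, 62.2 and 147 in IVF and 220, 0.177 and 47.4 in PA. CEP112 was 29.5, 15.4 and 0 in IVF and 0, 4.84 and 31.8 in PA. When the sisters' log values were averaged in place of their FPKM, CEP112 and CEP95 were the 2 of the 11 members still called.

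Such mixed detection was common to the whole library. At the 2-cell stage 24.2% to 44.9% of the members detected in an embryo were at FPKM 1 or more in 1 sister and below it in the other, against 34.7% to 53.1% of all tested genes. At the 4-cell stage the share of members mixed among the sequenced sisters was 69.7% to 97.8%, against 66.1% to 90.9% of all tested genes. In the 8-cell embryos it was 93.8% in IVF and 100% in PA, against 81.5% and 83.0%. No tested member reached FPKM 1 in all 3 PA 8-cell blastomeres, and 2 did in IVF. More sisters leave more room for a mixed result, so the stages are set side by side and not compared.

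**Figure D4:**
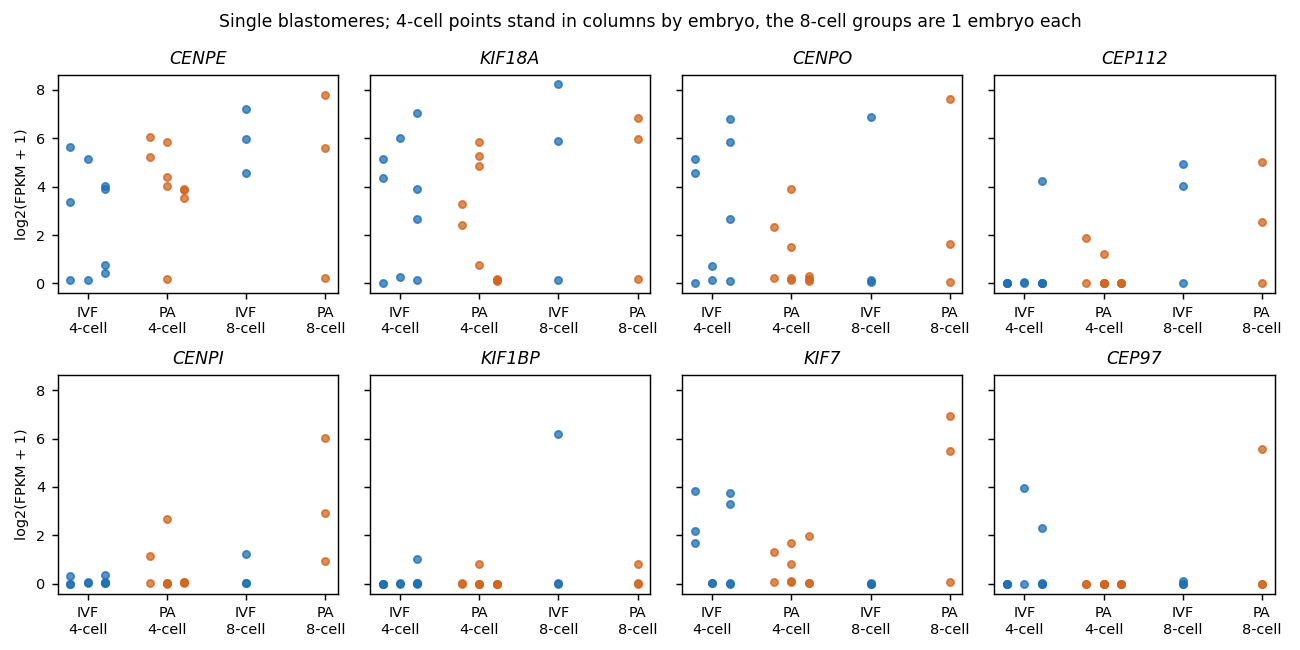
Single blastomeres of 8 members as log2(FPKM + 1) (y axis) at the 4- and 8-cell stages (x axis), blue for IVF and orange for PA. The 4-cell points stand in columns by embryo, and each 8-cell column is the 3 blastomeres of 1 embryo. KIF1BP in IVF and CEP97 in PA are each high in 1 8-cell blastomere, at 72.3 and 46.1 FPKM.

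IVF and PA embryos were then compared at the same stage. This comparison sets embryos with a sperm against embryos without it. The activation treatment differed as well, and the paper scored all PA embryos as female but some of the later IVF embryos as male. The effects of sperm, treatment and sex thus cannot be told apart. No member was called. Averaged over the 1-, 2- and 4-cell stages, limma called 0 of 68, and 8 had an unadjusted p under 0.05 (11.8%, against 14.6% of all genes). The background was 0.037%. At the 1-cell stage 0 were called and 3 had an unadjusted p under 0.05, against a background of 0.0493%. At the 2-cell stage 0 were called and 5 had an unadjusted p under 0.05, against a background of 0%. At the 4-cell stage 0 were called and 8 had an unadjusted p under 0.05, against a background of 0.554%.

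The members stood somewhat higher in IVF, as genes in general did. The median log2 difference, IVF minus PA, was 0.47 over the 68 members and 0.29 over all genes, and 53 of 68 members lay above 0, where 70.6% of all genes did. Under median-ratio scaling the median was -0.08 for members and -0.08 for all genes, so the sign turned. By family, 21 of 24 CEP genes lay above 0, with a median of 0.54, and 14 of 24 under median-ratio scaling, with a median of 0.09. Under that scaling 1 member was called, CENPE, lower in IVF, at a log2 difference of -1.47 ± 0.33 with a limma adjusted p of 0.0472.

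CEP350 had the lowest p in this comparison. The IVF embryos had 3.08, 24.7 and 25.9 at the 1-cell stage, 9.82, 9.50 and 17.5 at the 2-cell stage and 16.5, 7.07 and 35.4 at the 4-cell stage. The PA embryos had 9.86, 13.8 and 5.30, then 1.93, 2.88 and 4.77, then 0.326, 1.46 and 0.133. The methods overlapped at the 1-cell stage and not at the 2- and 4-cell stages. The averaged log2 difference was 1.88 ± 0.46 with a limma adjusted p of 0.104, which misses the threshold. It was 0.0457 without the 2 repeated PA 4-cell blastomeres, 0.0407 without both copies and 0.0488 without IVF 4-cell embryo 1. At the 4-cell stage the difference was 3.48 ± 0.80 with 0.0524, and 4.04 ± 0.80 with 0.00729 without the 2 repeated blastomeres (limma adjusted p).

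TUBGCP4, a structural subunit of the gamma-tubulin ring (chr1:128029406-128084044, minus strand), was above 0 in every IVF embryo and at or near 0 in PA embryos after the 1-cell stage. The IVF 1-cell embryos had 4.58, 1.15 and 3.39 and the PA 1-cell embryos 0, 4.16 and 0.778. At the 2-cell stage IVF had 1.42, 0.276 and 2.51 and PA 0, 0.0172 and 0. At the 4-cell stage IVF had 3.49, 5.35 and 6.40 and PA 0, 0.00327 and 0. The methods overlapped at the 1-cell stage and stood apart later. Each IVF 4-cell embryo owed its value to 1 blastomere, at 10.5, 10.7 and 25.6, with every sister at or below 0.0103. The averaged log2 difference was 1.52 ± 0.38 with a limma adjusted p of 0.107, and 0.0387 without IVF 4-cell embryo 1. It was 0.86 under median-ratio scaling and 1.47 with nuclear genes rescaled to the same total.

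TUBGCP5, another ring subunit, had 2.14, 12.5 and 3.88 in the IVF 1-cell embryos and 4.20, 2.19 and 0.0416 in the PA ones, then 7.06, 0.837 and 2.14 against 0.217, 0 and 0 at the 2-cell stage. By the 4-cell stage it was at or below 0.103 in every embryo. Its averaged log2 difference was 1.00 with a limma adjusted p of 0.275. KIF3B, a motor that builds cilia, had 2.77, 17.2 and 4.07 in the IVF 4-cell embryos and 0.00939, 0.0759 and 0.00249 in the PA ones, and its averaged difference was 1.79 ± 0.51 with a limma adjusted p of 0.142.

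In the other direction the smallest p-values belonged to CENPT, CEP55 and CEP112. CENPT, a kinetochore anchor, had 6.43, 4.30 and 0.00424 in the PA 2-cell embryos and at most 0.00475 in the IVF ones. The 6.43 and 4.30 came from the repeated PA 2-cell blastomeres 1-2 and 2-1, at 12.9 and 8.60. Their copies labelled PA 4-cell had 11.7 and 9.39. For CENPT the averaged log2 difference was -0.89 ± 0.40 with a limma adjusted p of 0.318, and -0.39 without the 2 repeated blastomeres. CEP55, which acts in the final cut of cell division, was at -1.29 ± 0.63 with 0.351, and CEP112 at -0.70 ± 0.47 with 0.501 (limma adjusted p).

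**Figure D5:**
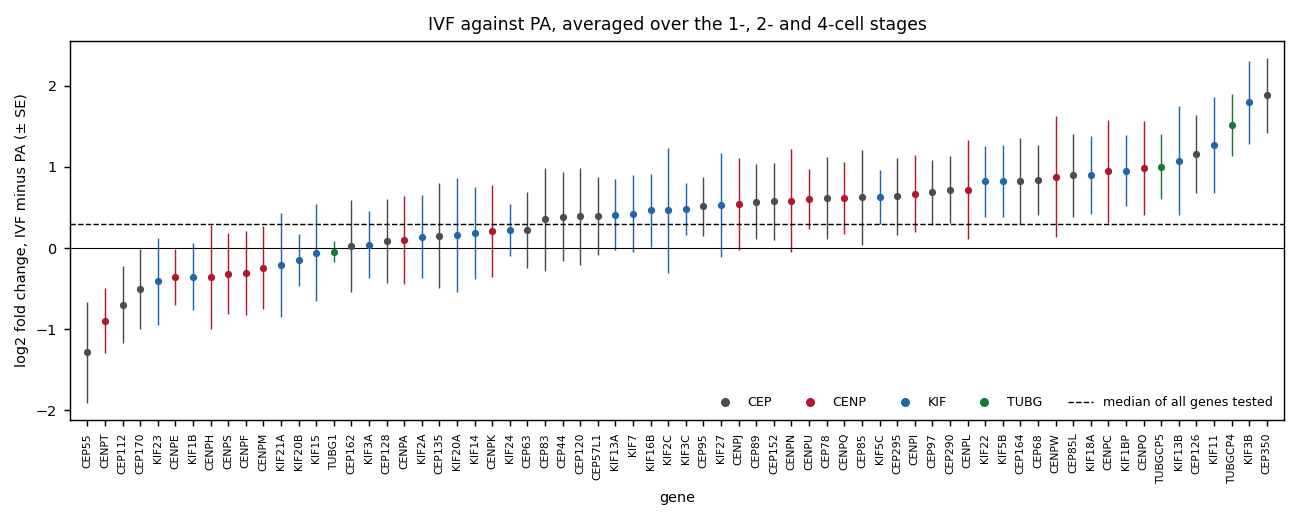
Log2 fold change, IVF minus PA, averaged over the 1-, 2- and 4-cell stages (y axis) for the 68 tested members in rising order (x axis), coloured by family, with bars for the standard error from limma. The dashed line is the median of all genes tested, 0.29. CEP350 is the highest at 1.88 and CEP55 the lowest at -1.29, and no member was called.

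At the 8-cell stage each method had 1 embryo, so the 2 were set side by side with no test. KIF3B was 30.2 in IVF and 0 in PA, CEP290 29.7 and 0.0543, and KIF1BP 24.1 and 0.254. CENPI was 0.466 in IVF and 23.7 in PA, KIF7 0.00483 and 55.5, and CEP97 0.0245 and 15.4. CENPI lies on the X chromosome, and the paper scored the IVF embryo of this stage as male and the PA embryo as female. The part of sex in these values was not tested.

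The 4- to 8-cell step itself was also compared between the methods. limma called 0 of 68 members with a larger rise in IVF, against 0.887% of all genes, and 2 with a larger rise in PA, against 1.97% of all genes. The 2 were KIF7 and CEP97, 2.94% of members against 2.86% of all genes in either direction, so the count was at the background. KIF7 (chr7:55197152-55220264, minus strand) had 6.29, 0.0117 and 5.32 in the IVF 4-cell embryos and 0.00483 in the IVF 8-cell embryo. In PA it had 0.752, 0.785 and 1.00 and then 55.5. The difference between the steps was -6.78 ± 1.63, IVF minus PA, with a limma adjusted p of 0.0293, and it kept the call without any embryo that could be left out. It lost it with a pseudocount of 0.1 (0.0701), with nuclear genes rescaled (0.0543), with the blastomeres' log values averaged (0.111) and when the fit held only the compared groups (0.631). KIF7 was 123, 0.0452 and 43.5 in the 3 PA 8-cell blastomeres. It overlaps TICRR, a gene of replication origins, on the opposite strand over 6261 bases, and TICRR was 96.9, 0.0290 and 36.2 in the same cells. Reads of this pair in the shared bases cannot be told apart either.

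CEP97 (chr13:157334551-157388378, minus strand) had 0.00170, 7.28 and 0.976 in the IVF 4-cell embryos and 0.0245 in the IVF 8-cell embryo, and in PA 0, 0.00143 and 0, and then 15.4. The PA 8-cell value came from 1 blastomere at 46.1, with both sisters at 0. Its difference was -5.34 ± 1.40 with a limma adjusted p of 0.0467, and the call was lost without any of 13 of 18 embryos, at up to 0.0678.

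Other genes of these structures, were taken from lists that hold no member. Of 111 listed genes 84 were in the table and 72 were tested. Fits with embryos left out or with another scaling are not given for them. Between the 2- and the 4-cell stage 2 fell and 0 rose, averaged over both methods. They were 2.78% of the listed genes, where 2.35% of all genes fell. CNTROB, a centriole protein, fell by 2.94 ± 0.55 with a limma adjusted p of 0.00649, and DEUP1, which builds centrioles in ciliated cells, by 1.93 ± 0.51 with 0.0362. DEUP1 had 48.7, 45.2 and 72.4 in the IVF 2-cell embryos and 21.3, 0.447 and 4.06 in the IVF 4-cell embryos. In PA its stages overlapped, at 40.8, 51.6 and 31.3 and then 25.7, 22.5 and 37.0.

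Between the 4- and the 8-cell stage 4 rose and 5 fell, 12.5% in all, where 7.27% of all genes rose and 5.34% fell, so these counts were near the background. HAUS5 had 11.0 in the 8-cell embryo of IVF and 0.00384 in that of PA. The PA 4-cell embryos had 0.00248, 0.508 and 0.00263, so HAUS5 stood higher at the 8-cell stage in IVF only. HAUS6, of the augmin complex that branches spindle microtubules, had at most 0.807 in the 4-cell embryos and 66.3 in the 8-cell embryo of IVF and 8.01 in that of PA. It rose by 4.46 ± 0.57 with a limma adjusted p of 2.08e-05. CETN3, a centrin, rose by 2.51 ± 0.75 with 0.0316, HAUS5 by 1.62 ± 0.42 with 0.0146, and ZW10, of the outer kinetochore, by 3.45 ± 0.95 with 0.0202 (limma adjusted p).

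Those that fell were SASS6, which forms the centriole's cartwheel, PCM1, which scaffolds the granules around it, SGO2, which guards sister chromatids, and the microtubule-tip proteins CLIP1 and CKAP5. SASS6 had 0.104 in the 8-cell embryo of IVF, where the IVF 4-cell embryos had 29.8, 30.9 and 13.5. Its PA 8-cell value, 7.86, lay within the range of the PA 4-cell embryos, at 24.9, 26.8 and 7.36. PCM1 had 8.23 to 31.6 in the IVF and 3.09 to 22.2 in the PA 4-cell embryos and 0.167 and 0.0421 in the 8-cell embryos, which did not overlap. It fell by 3.59 ± 0.69 with a limma adjusted p of 0.00131. SASS6 fell by 2.75 ± 0.59 with 0.00369, SGO2 by 2.77 ± 0.63 with 0.00528, CLIP1 by 4.01 ± 0.93 with 0.00626 and CKAP5 by 2.49 ± 0.81 with 0.0478 (limma adjusted p). No listed gene was called between IVF and PA at the 1-, 2- or 4-cell stage or averaged over them. In the 4- to 8-cell step 2 of the 72 differed between the methods, 2.78% against 2.86% of all genes. They were DEUP1 by 6.03 ± 1.43 and HAUS5 by 3.63 ± 0.85, IVF minus PA, with limma adjusted p of 0.0281 and 0.0258.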

How the data were processed

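Single zygotes and blastomeres of IVF and PA pig embryos were sequenced after amplification of total cDNA. The authors mapped reads to Sscrofa11.1 with HISAT2, counted them per gene and deposited FPKM values, 1 column for each of 42 cells. Strand and counting options are not given in the sources used here. Whole reads were recovered from the steps of the FPKM values (tolerance 0.002) to give depth, which covers counting error only, since amplified reads are not independent molecules. FPKM of 1 read was 0.00149 to 0.113 over 75 members.

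Cells were averaged per embryo (20 embryos in 8 groups), and log2(FPKM + 1) was fitted with limma 3.58.1 (R 4.3.3) with a trended variance over 8116 genes that reached an FPKM of 1 in at least 3 cells. All 8 groups shared the estimate of spread, and 15 contrasts were taken. A fold change on this scale understates the change of low genes. The script was tested on simulated data with known changes.

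Members, role lists and pathway lists were chosen with earlier results of these data known. Genes were named by rule: the 5 highest of each family and every gamma-tubulin member, every called member, and for IVF against PA the 3 lowest unadjusted p-values in each direction; other genes came from the pathway lists, and other members named were chosen after their values were seen. Alternatives were another pseudocount (0.1 or 5), another filter, 2 scalings, log averaging, removal of repeated cells, the embryo number as a block, fits of the groups compared alone, and each embryo left out. One result on a single untested member is not reported here.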

Additional observations from a re-analysis of the deposited data

Results flagged for a closer look

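The 4- to 8-cell step differed between IVF and PA for 2 of the 68 members, by a test of the difference itself. They are 2.94% of members, against 2.86% of all genes, so the count is at the background. For KIF7 the difference, IVF minus PA, was -6.78 on the log2 scale, and for CEP97 it was -5.34. The PA 8-cell group is 1 embryo, in which KIF7 was high in 2 of 3 blastomeres and CEP97 in 1 of 3. KIF7 and TICRR overlap on opposite strands and correlated at r = 0.75 over the 42 cells.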

How the results depend on the processing

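Depth differed between groups, with a median of 13594856 reads in the PA 1-cell and 7109449 in the PA 4-cell cells, and its part was not tested. Other limits were 1 embryo per method at the 8-cell stage, a share-based unit, and 2 repeated pairs of cells. Over 31 settings, the 28 called member results had 828 alternatives, of which 223 lost the call and 0 reversed, and 0 results stood under all of them.

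The counts of called members moved as follows, with the cause not tested. For the 2- to 4-cell step averaged over methods (5 called), a pseudocount of 5 gave 2, no filter 2, the mean of log2 over blastomeres 15, removal of the 2 repeated PA 4-cell blastomeres 11, removal of both copies 8, and only the groups compared 0. For the 4- to 8-cell step (11 called), no filter gave 7, nuclear genes rescaled 6, median-ratio scaling 21, the mean of log2 2, both copies removed 6, and only the groups compared 0. For IVF 2- to 4-cell (1 called), a pseudocount of 0.1 gave 2, an FPKM minimum of 5 gave 3, median-ratio scaling 0, the mean of log2 5, and only the groups compared 0. For IVF 4- to 8-cell (4 called), a pseudocount of 5 gave 2, median-ratio scaling 9, the mean of log2 2, both copies removed 2, and only the groups compared 0. For PA 2- to 4-cell (0 called), median-ratio scaling gave 2, the mean of log2 1, and the removals 13 and 4. For PA 4- to 8-cell (5 called), no filter gave 3, nuclear genes rescaled 3, median-ratio scaling 13, the mean of log2 1, and only the groups compared 0. For IVF minus PA averaged over stages (0 called), median-ratio scaling gave 1 (CENPE, lower in IVF) and both removals 1 each (CEP350, higher in IVF). At the 4-cell stage (0 called), a pseudocount of 0.1 and an FPKM minimum of 5 gave 1 each, median-ratio scaling 5, and both removals 2 each. For the 4- to 8-cell difference between methods (2 called), a pseudocount of 0.1 and an FPKM minimum of 5 gave 1 each, median-ratio scaling 7, and nuclear genes rescaled, the mean of log2 and only the groups compared 0 each.

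Leaving out 1 embryo gave 1 to 9 for the averaged 2- to 4-cell step, 6 to 15 for the averaged 4- to 8-cell step, 0 to 6 for IVF and 0 to 1 for PA 2- to 4-cell, 4 to 8 for IVF and 2 to 6 for PA 4- to 8-cell, 0 to 2 for IVF minus PA averaged and at the 4-cell stage, and 1 to 2 for the 4- to 8-cell difference. The lone 8-cell embryos could not be left out. Embryo numbers did not pair the samples in general: deviations of same-numbered embryos had a median correlation of 0.0083 over 45 pairs. Of these, 4 were above 0.1, the highest at 0.355. Embryos of other numbers had a median of -0.0026 over 90 pairs, 1 of them above 0.1, at 0.113. The 2 repeated pairs of cells each join a PA 2-cell and a PA 4-cell embryo of the same number, 1 or 2. Those embryos are thus not independent. With the embryo number as a replicate block, 5 members were called in the averaged 2- to 4-cell step, 8 in the averaged 4- to 8-cell step, 1 in IVF 2- to 4-cell, 3 in IVF and 4 in PA 4- to 8-cell, and 2 in the 4- to 8-cell difference.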

Other observations

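The row named KIF23, which lies on a RefSeq pseudogene, was chosen after its values were seen. It had 2.73, 3.55 and 3.25 FPKM in the IVF 1-cell embryos and 26.4, 31.8 and 13.7 in the PA 1-cell embryos, which did not overlap. The log2 difference, IVF minus PA, was -2.50 with a limma adjusted p of 0.914, so it did not pass the threshold over all genes.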
